A study of Mus musculus with 5 samples.

Results

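Oxidative phosphorylation is carried out by 5 protein complexes of the inner mitochondrial membrane, and most of their subunits are encoded in the nucleus. The genes described here are 82 nuclear genes of these complexes among the 35976 rows of a count table from mouse haematopoietic stem cells (HSCs). They were chosen by name (Nduf genes with the letters a, ab, b, c, s or v, the 4 Sdh genes, and genes starting with Uqcr, Cox4 to Cox8 or Atp5, with Cyc1 and Cycs) and by at least 100 counts summed over the 5 libraries. The names matched 89 rows; 2 were pseudogenes by their names and 5 were under 100 counts. The 82 members are 37 of complex I, 4 of complex II, 9 of complex III, 14 of complex IV, 17 of complex V and Cycs. Next to the count limit stood Ndufa4l2 with 2 counts in all on the outside and Cox7a1 with 109 on the inside, and Cox6a2, Cox7b2, Cox8b and Cox8c had 0 counts in every library.

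Each library was made by Smart-seq2, which amplifies full-length cDNA, from 30 sorted HSCs (lineage-negative, Sca-1+, c-kit+, CD34-, CD150+) of a C57BL/6 mouse. The sample labels give 2 libraries of WT mice and 3 of Ythdf3-/- mice, YTHDF3 being a cytoplasmic protein that binds N6-methyladenosine marks on mRNA. The series text counts 2 knockout and 3 wild-type samples, and neither source describes the allele or gives the age of the mice. For Ythdf3 itself, the library labelled WT 1 gave 20 counts and WT 2 gave 29, and the 3 labelled Ythdf3-/- gave 2, 339 and 366. The low count of Ythdf3-/- 1 is on the side of its label, while those of the other 4 libraries go against theirs, so every library is named by its label, and lower or higher refers to the labels alone.

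Totals were 6357862 to 16650134 counts per library. Each of the 9 HSC markers examined had at least 1 count in every library. Slamf1, which encodes CD150, had 1 count in the library labelled WT 2 and 211 to 482 elsewhere, and Fgd5 had 2 counts in Ythdf3-/- 1, 5 in Ythdf3-/- 3 and 303 to 713 elsewhere. The library labelled WT 2 also had a summed level of 8 proliferation genes of 789 CPM (counts per 1000000 counts of the library), against 39.9 to 131 CPM elsewhere, and Gata1, the erythroid transcription factor, at 1061 counts against 1 to 6. The 11 erythroid genes summed to 36558 CPM in the library labelled Ythdf3-/- 1, most of it globin, to 1468 CPM in WT 2 and to 34.9 to 165 CPM in the others. Of the 7 macrophage and monocyte genes, Csf1r was at 0 in 4 libraries and Adgre1 had at most 1 count. Their summed level was 26.7 and 47.8 CPM in WT 1 and WT 2 and ran from 63.9 to 242 CPM in the libraries labelled Ythdf3-/-. Single genes carried much of these sums and did not agree. C1qb had 47.4 CPM in WT 2 and 0 in Ythdf3-/- 1. Cd68 had 123 CPM in Ythdf3-/- 3, 23.6 CPM in WT 1 and at most 0.315 CPM elsewhere. In bulk libraries, fewer cells of a type and less RNA per cell cannot be told apart.

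Complex I passes electrons from NADH, and complex II those from succinate, to ubiquinone. Complex III passes them on to cytochrome c, and complex IV from there to oxygen. Complex V, the ATP synthase, uses the proton gradient that complexes I, III and IV build. Complexes I, III, IV and V also hold subunits encoded by mitochondrial DNA, while complex II is wholly nuclear. HSCs at rest are known to rely less on this pathway than their dividing progeny do.

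Many nuclear genes of the pathway have sites for the transcription factors NRF-1, GABP (an ETS factor) and YY1 near their start sites. The stretches below show such matches in complexes I, III, IV and V, each from the member with the smallest p in its complex among those with an NRF-1 or ETS match upstream, taken from RefSeq (GRCm38.p6) and outside annotated exons. They are written 5′ to 3′ on the gene's strand, and capitals mark the match.
Ndufb6, complex I, ETS match, chr4:40279617-40279671, minus strand: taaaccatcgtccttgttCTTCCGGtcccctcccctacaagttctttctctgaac
Uqcr11, complex III, ETS match, chr10:80406851-80406917, minus strand: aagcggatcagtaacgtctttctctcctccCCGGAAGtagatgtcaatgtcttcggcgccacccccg
Cox6a1, complex IV, NRF-1 match, chr5:115349036-115349105, minus strand: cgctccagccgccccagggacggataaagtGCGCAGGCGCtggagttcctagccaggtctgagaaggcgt
Atp5l, complex V, ETS match, chr9:44920918-44920984, minus strand: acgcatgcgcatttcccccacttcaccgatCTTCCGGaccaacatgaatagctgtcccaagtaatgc

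Promoter windows of 300 bases (250 before to 50 after the start) were listed for 66 of the 82 members, in 71 windows. The NRF-1 letters, GCGCA and GCGC with any base between them, searched on both strands, were in 18 of the 71 windows (25.4%) and in 4.60% of all 32851 windows of the table, or 6.38% of those of protein-coding genes. The ETS letters CCGGAAG were in 16 of 71 windows (22.5%, against 8.86% of all and 11.6% of protein-coding genes) and the YY1 letters AAGATGG in 10 (14.1%, against 6.34% and 6.24%). No member window held matches of different motifs that overlapped. NRF-1 matches were spread over complex I (7 of 33 genes), complex II (Sdha and Sdhd of 3) and complex V (6 of 13), with 1 gene each in complexes III (Uqcrc1 of 5) and IV (Cox6a1 of 10). Between the labels, the 17 tested members with an NRF-1 match had a median log2 fold change of -0.70 and the 48 without one of -0.61. For the ETS letters the medians were -0.64 and -0.62. A match is a string of letters and was not examined for binding.

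Between the labels, 0 of the 81 members tested passed the edgeR quasi-likelihood test (adjusted p 0.964 to 0.9998), and 0% of all 11146 genes tested passed it. DESeq2 called 594 genes and limma voom 0, with 0 members in either. At an unadjusted p under 0.05 in edgeR stood 541 genes and 6 members, the members all lower under the Ythdf3-/- label: Ndufa2, Ndufa11, Uqcrq, Uqcr11, Uqcr10 and Cox6b1. The share of all tested genes that was lower at this p was 2.75%. In 24 members every library labelled Ythdf3-/- lay below both labelled WT, where 11.0% of all genes tested did so. In no member did every such library lie above both, where 9.74% of all genes did. The fitted level was lower in 65 of 81 members, against 52.2% of all genes, and the median log2 fold change was -0.57 against -0.06 over all genes.

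These counts changed most when a library labelled WT was left out, and WT 2 stood highest. It held the highest CPM of 53 of the 82 members, and of 22.9% of all genes tested. Without it, 47 of 81 members were fitted lower (44.5% of all genes), the median was -0.06 against 0.22 over all genes, and 1 member had an unadjusted p under 0.05. Members below or above the remaining library labelled WT in every library labelled Ythdf3-/- then numbered 27 and 15, against 26.4% and 21.0% of all genes. Leaving out WT 2 and Ythdf3-/- 1 together, these numbers were 37 and 24, against 34.9% and 31.2%, with a median of -0.19 against 0.09. Without WT 1 instead, 57 members were lower in every library labelled Ythdf3-/- (27.3% of all genes), 21 had an unadjusted p under 0.05, and the median was -0.91 against 0.31 over all genes. Without Ythdf3-/- 2, 3 members had such a p. The summed level of the proliferation genes and the level of Gata1 were highest in WT 2 as well, as given above. Among the proliferation genes, Ccnb1 and Cdk1 were instead highest in WT 1. They had 11.0 and 55.0 CPM there, against 0.446 and 44.3 CPM in WT 2. The part of the proliferation genes and Gata1 in the members' levels was not tested.

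**Figure D1:**
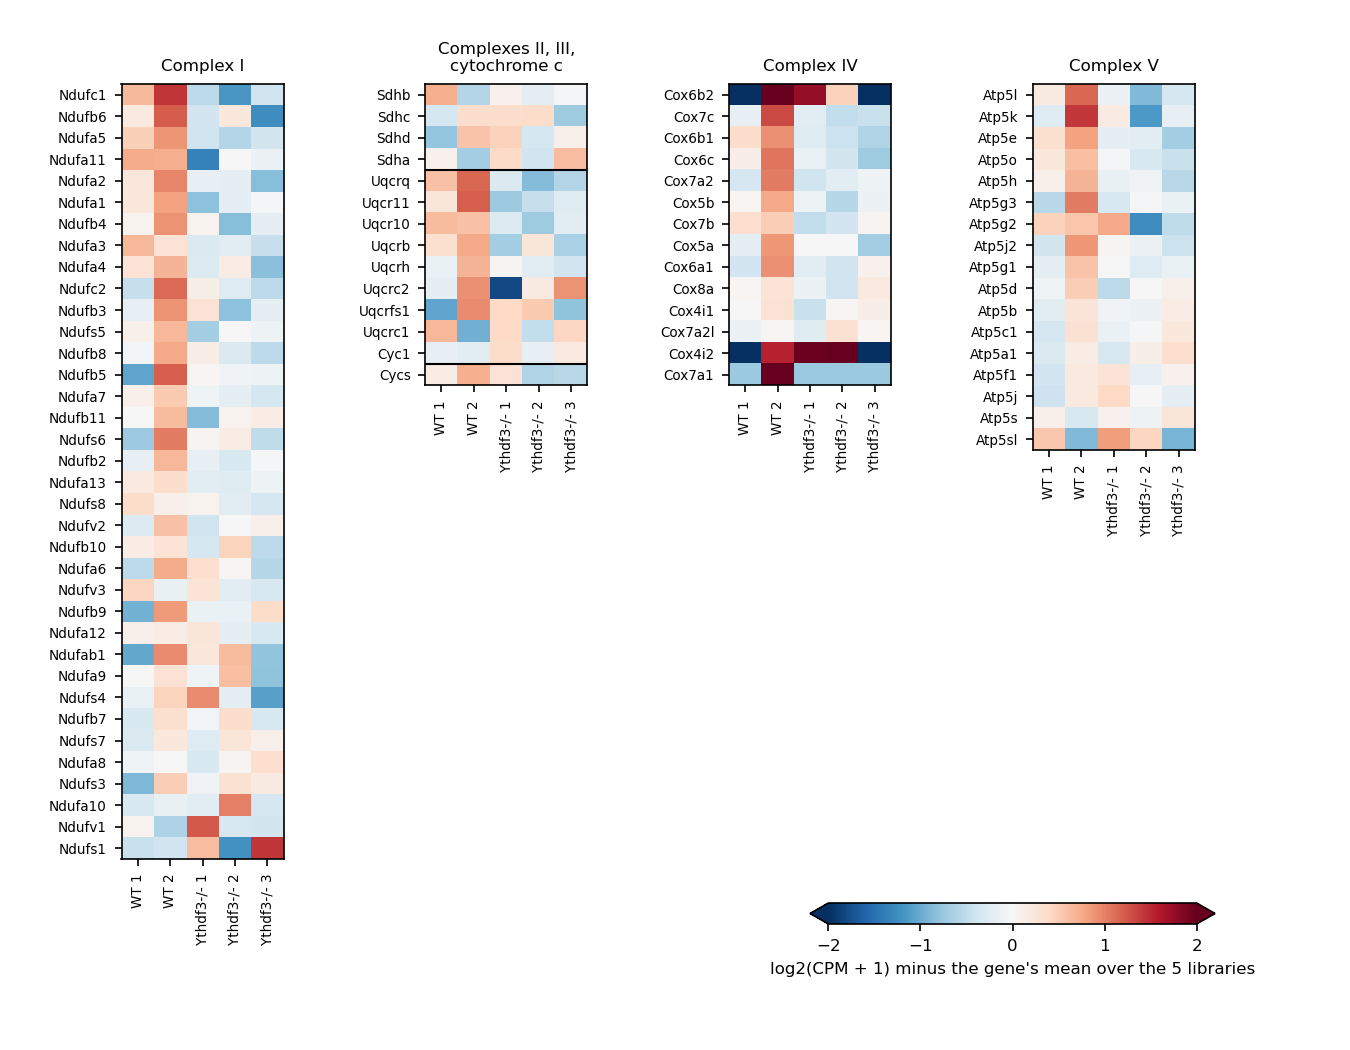
Level of 81 of the 82 members (rows, by complex, sorted by fitted change, with Cox7a1, which was not fitted, at the end of complex IV) in the 5 libraries (columns), as log2(CPM + 1) minus the gene's own mean, from blue (lower) to red (higher). The column of the library labelled WT 2 is the highest for 53 members, and Cox4i2, Cox6b2 and Cox7a1 vary far more than the rest.

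As a share of all counts, the pathway lay close together in the other 4 libraries. The 82 genes took 1.88% of counts in WT 1 (95% Wilson interval 1.87 to 1.88) and 2.62% in WT 2 (2.61 to 2.63). They took 1.82% (1.81 to 1.83), 1.76% (1.75 to 1.77) and 1.78% (1.77 to 1.79) in Ythdf3-/- 1, 2 and 3. These intervals treat every count as independent, and PCR copies of a molecule are counted more than once, so they understate even the counting error. The spread between libraries is not in them. The label means were 2.25 ± 0.527% (SD, n = 2) and 1.79 ± 0.0305% (SD, n = 3), and the difference of -0.464 percentage points became -0.0914 without WT 2. Over the 5 libraries, the SD of log2(CPM + 1) had a median of 0.56 among tested members and of 1.57 among all genes tested. Apart from Cox4i2, Cox6b2 and Cox7a1, no member had fewer than 144 counts in any library.

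Levels between genes were compared per kilobase of coding transcript. Cox4i1, the largest nuclear subunit of complex IV, was highest at 1294 CPM per kilobase, averaged over the 5 libraries. Cox6b1 (900.1), Uqcr11 (836) and Uqcrh (828) followed on the same scale. The order differed between libraries: Cox4i1 led in 4 of 5, and in WT 2 Uqcr11 and Cox6b1 stood above it. Medians over members were 216 CPM per kilobase for complex I, 169 for complex II, 342 for complex III, 269.6 for complex IV and 298 for complex V. Cycs, on an annotated transcript of 3123 bases, was the lowest but for Cox7a1, at 37.0 CPM per kilobase.

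The size of the difference went with transcript length. Among the 26 tested members with a median coding transcript of up to 600 bases (GENCODE M21), 26 were fitted lower, with a median log2 fold change of -1.00. The median was -0.60 for the 25 of over 600 to 1000 bases and -0.23 for the 11 of over 1000 to 1500 bases. For the 18 longer ones it was 0.02, and 8 of 18 were fitted lower. Of the 24 members whose labels did not overlap, 16 were in the shortest class and 0 in the longest. Among genes outside the pathway, 32.1% of the shortest class and 9.96% of the longest were lower in every library labelled Ythdf3-/-. Genes outside the pathway followed a like order: the median was -0.63 for 137 tested genes of up to 600 bases, -0.20 for 670 of over 600 to 1000 bases, 0.01 for 1092 of over 1000 to 1500 bases, and -0.02 for 7711 longer ones.

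Across the 80 members with a length, Spearman's rho of length and log2 fold change was 0.69, against -0.03 across 9690 genes tested. These are correlations across genes of the same 5 libraries, and the genes are not independent replicates. Within complexes rho was 0.62 (complex I, n = 37), 0.73 (III, n = 9), 0.65 (IV, n = 13) and 0.78 (V, n = 16). In the library labelled WT 2 the shortest members stood 0.84 above their own 5-library mean in log2(CPM + 1), and those over 1500 bases 0.17 above it (medians). In WT 1 these medians were 0.21 and -0.17. Without WT 2, rho among members was 0.43 and the medians of log2 fold change ran from -0.59 in the shortest class to 0.25 in the longest, while genes outside the pathway ran from -0.18 to 0.24. Length classes were chosen after the values were seen, and the part of length in the differences was not tested.

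**Figure D2:**
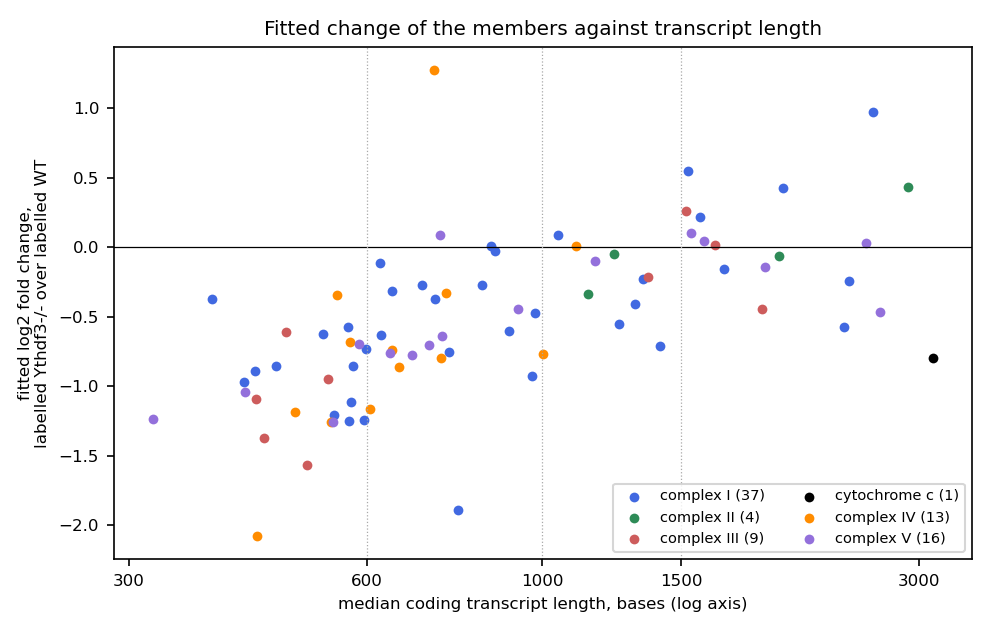
Fitted log2 fold change (labelled Ythdf3-/- over labelled WT) of 80 members against the median length of their coding transcripts on a log axis, coloured by complex; dotted lines mark 600, 1000 and 1500 bases. Every member of up to 600 bases lies below 0, and those over 1500 bases scatter around 0.02.

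The 37 genes of complex I split by role. Its 7 nuclear core subunits carry the flavin, the iron-sulphur clusters and the ubiquinone site, and 3 of 7 were fitted lower, with a median log2 fold change of 0.09. Of the 30 accessory subunits, which surround the core, 28 were fitted lower, with a median of -0.61 and 10 not overlapping between the labels. Over all genes tested, 52.2% were fitted lower and 11.0% were lower in every library labelled Ythdf3-/-. Transcripts of the core had a median length of 1312 bases and those of the accessory subunits of 674.5 bases, so role and length cannot be told apart here. Without WT 2 the medians were 0.28 and -0.19, against 0.22 over all genes.

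Ndufa2, an accessory subunit at the NADH-oxidising end (chromosome 18, 36742332 to 36744587), had 273 and 458 CPM in the libraries labelled WT and 209, 204 and 129 CPM in those labelled Ythdf3-/-. Ndufa11, an accessory subunit of the membrane arm (chromosome 17, 56717762 to 56724248), had 305 and 300.1 CPM against 70.3, 181 and 168 CPM. Both were lower in every library labelled Ythdf3-/-, with the 2 libraries labelled WT near each other for Ndufa11 and not for Ndufa2. The log2 fold changes were -1.11 (SE 0.44) and -1.20 (SE 0.51), with adjusted p = 0.964 and 0.983 in edgeR. Without WT 2 they were -0.63 and -1.15, and that of Ndufa11 was -0.85 without Ythdf3-/- 1. Exons of both overlap another gene, Tmco6 and Vmac, so reads from the shared part may be counted for the wrong gene. The extent and strand of the overlap were not examined.

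Ndufc1, a small membrane-arm subunit, had 72.1 and 125 CPM against 31.5, 19.8 and 34.6 CPM (log2 fold change -1.89, SE 0.93). Ndufb6, of the distal membrane arm, had 149 and 302 CPM against 99.1, 151 and 54.2 CPM (-1.25, SE 0.61). Its labels overlapped, since Ythdf3-/- 2 lay above WT 1, and the value was -0.59 without WT 2. Ndufa4, named as a complex I gene but known as a subunit of complex IV, had 301 and 396 CPM against 204, 275 and 137 CPM (-0.85, SE 0.44). None of these 3 passed (adjusted p = 0.983 for each in edgeR). Of the other members of complex I whose labels did not overlap, Ndufa5 had 98.9 and 131 CPM against 53.8, 46.9 and 55.2 CPM. Ndufa3 had 192 and 149 CPM against 99.2, 104 and 88.1 CPM, with WT 1 the highest. Ndufa13, known also as GRIM-19, had 339.5 and 380.5 CPM against 256, 252 and 277 CPM. Ndufa1, Ndufa7, Ndufs5 and the core subunit Ndufs8 were the remaining 4. Over the 30 accessory subunits log2 fold changes ran from -1.89 (Ndufc1) to 0.43 (Ndufa10). Ndufab1, the acyl carrier protein shared with mitochondrial fatty acid synthesis, had 73.9 and 295 CPM against 178, 237 and 87.6 CPM, with overlap (log2 fold change -0.24, SE 0.70).

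Core subunits moved apart from one another. Ndufs1, the largest subunit of the NADH-oxidising arm with iron-sulphur clusters, had 66.2 and 68.2 CPM against 140, 38.8 and 246 CPM. Ndufv1, which binds the flavin, had 108 and 66.9 CPM against 244, 82.6 and 80.1 CPM. Both were highest in a library labelled Ythdf3-/-, but not in the same one. Ndufa10, an accessory subunit with 149 and 167 CPM against 157, 372 and 146 CPM, was high in Ythdf3-/- 2 alone. Their fitted log2 fold changes of 0.97 (SE 0.82), 0.55 (SE 0.73) and 0.43 (SE 0.55) were the highest of complex I, and for Ndufv1 and Ndufa10 the value turned to -0.16 without Ythdf3-/- 1 and without Ythdf3-/- 2, in that order. That of Ndufs1 became 0.33 without Ythdf3-/- 3. Ndufs7, which carries an iron-sulphur cluster near the ubiquinone site, had 302 and 426.5 CPM against 308, 436 and 398.5 CPM, with overlap.

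Further core subunits carry or neighbour iron-sulphur clusters in the arm that reaches into the matrix. Ndufs3 had 78.5 and 207 CPM against 140.1, 183.5 and 167 CPM, and Ndufv2, the partner of Ndufv1, 165 and 299.8 CPM against 152, 199 and 214 CPM. Both had 1 library labelled WT near each end of their range. Ndufs8 had 474 and 396 CPM against 388, 317 and 291 CPM, the only core subunit whose labels did not overlap, by a margin of WT 2 over Ythdf3-/- 1 that is small beside the spread within either label. Its log2 fold change of -0.48 (SE 0.34) was the lowest of the core.

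Complex I as a whole took 0.684% and 0.966% of counts in the libraries labelled WT, against 0.667%, 0.696% and 0.611% in those labelled Ythdf3-/-. The library labelled Ythdf3-/- 3 held the lowest level of 16 of its 37 genes, Ythdf3-/- 2 that of 8 and the libraries labelled WT 1 and Ythdf3-/- 1 that of 6 each.

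Complex II, succinate dehydrogenase, which also serves the citric acid cycle, showed no common direction. Sdha, the flavoprotein, had 292 and 172 CPM in the libraries labelled WT, against 362, 209 and 424 CPM. Sdhb, the iron-sulphur subunit, had 478 and 192 CPM against 304, 249.98 and 283 CPM. Sdhc and Sdhd, the membrane anchors, had 144 and 235 CPM against 234, 237 and 112 CPM, and 160.3 and 407 CPM against 378, 215 and 296 CPM. For each gene the labels overlapped, and 4 different libraries held the highest levels. Log2 fold changes were 0.43 (SE 0.45) for Sdha and -0.34 (SE 0.45) for Sdhb, adjusted p = 0.9998 in edgeR for both, and that of Sdhb turned to 0.41 without WT 1. That of Sdha ran from 0.15 without WT 2 to 0.81 without WT 1. The complex's median of -0.05 became 0.05 under scaling by library totals and 0.27 without WT 2 (0.22 over all genes), so no direction is given. It took 0.107% and 0.101% of counts against 0.128%, 0.0910% and 0.111%.

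Complex III held the members with the smallest p beside Cox6b1, and they were small subunits. All 5 small subunits were fitted lower (median -1.09), and 4 did not overlap. Of genes outside the pathway of up to 600 bases, 75.2% were fitted lower and 32.1% were lower in every library labelled Ythdf3-/-. Uqcrq (chromosome 11, 53427922 to 53430831), which binds beside cytochrome b, had 230.0 and 341 CPM against 125, 82.7 and 101 CPM. Uqcr11 (chromosome 10, 80402997 to 80406821) had 388 and 758 CPM against 199, 240.1 and 274 CPM. Uqcr10 (chromosome 11, 4701968 to 4704344) had 374 and 362 CPM against 199, 147 and 207 CPM. In these 3 genes even the lower library labelled WT was well above the highest labelled Ythdf3-/-, and for Uqcr10 both libraries labelled WT were alike.

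Their log2 fold changes were -1.57 (SE 0.46), -1.37 (SE 0.41) and -1.09 (SE 0.38), with adjusted p = 0.964 in edgeR for each. Without WT 2 they were -1.20, -0.74 and -1.06. Uqcrb had 127 and 173 CPM against 62.8, 121 and 64.7 CPM. Uqcrh, the acidic hinge protein next to cytochrome c1, had 346 and 610 CPM against 392, 326 and 290.2 CPM, with overlap. Uqcr11 and Uqcrb have pseudogenes with stretches of near-identical sequence, so their counts are uncertain. Without WT 2 the median of the 5 small subunits was -0.74 against 0.22 over all genes. In every library labelled Ythdf3-/-, 4 of the 5 still lay below the remaining library labelled WT, where 26.4% of all genes did so.

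The 4 larger subunits of complex III had a median of -0.10, and none kept its labels apart. Without WT 2 that median was 0.29, against 0.22 over all genes. Uqcrc1, a core protein, had 821 and 264 CPM against 680, 366 and 691 CPM, the lowest value being that of WT 2. Uqcrc2, its partner, had 126 and 273 CPM against 40.7, 163 and 271 CPM. Uqcrfs1, the Rieske iron-sulphur protein, had 85.5 and 344 CPM against 237, 257 and 102 CPM. Cyc1, cytochrome c1, had 212 and 203 CPM against 309, 212 and 273 CPM (log2 fold change 0.26, SE 0.40). Transcripts of these 4 were 1363 to 1896 bases long and those of the small subunits 434 to 535 bases. Cycs, the mobile electron carrier, had 121 and 179 CPM against 132, 71.3 and 74.0 CPM (-0.79, SE 0.61, and -0.42 without WT 2), with pseudogenes that share sequence.

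**Figure D3:**
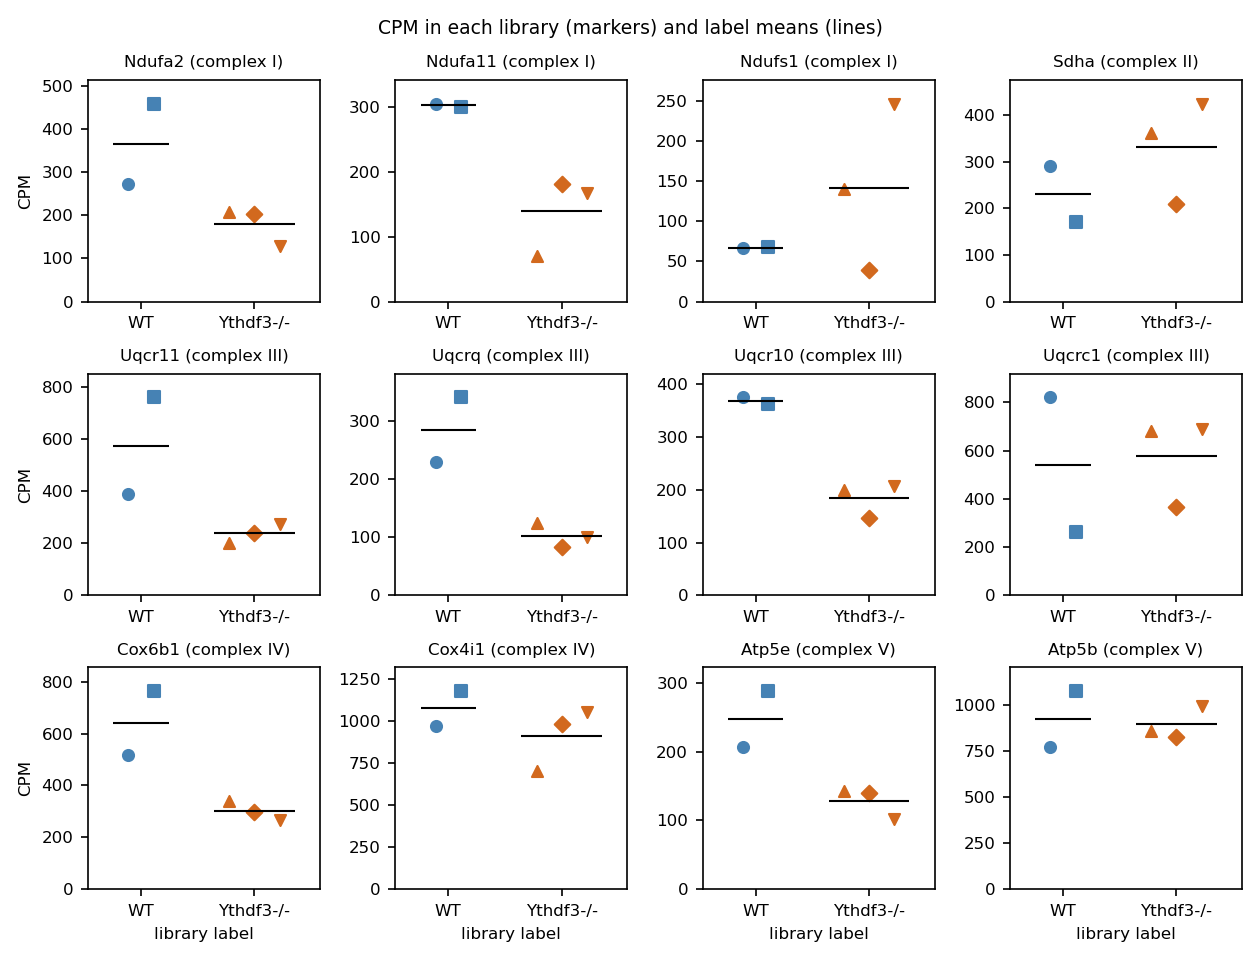
CPM of 12 members in each library (blue, labelled WT; orange, labelled Ythdf3-/-; lines, label means). Uqcrq, Uqcr11, Uqcr10, Cox6b1, Ndufa2, Ndufa11 and Atp5e show no overlap between the labels, while Ndufs1, Sdha, Uqcrc1, Cox4i1 and Atp5b overlap.

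In complex IV the nuclear genes encode no catalytic subunit, since the metal centres lie in subunits from mitochondrial DNA. Of its 13 tested genes 11 were fitted lower (median -0.77) and 5 did not overlap (Cox6b1, Cox6c, Cox5b, Cox7c and Cox7b). The shares over all genes tested were 52.2% and 11.0%. Cox6b1 (chromosome 7, 30616971 to 30626114), which faces the intermembrane space, had 518 and 764 CPM against 340.2, 299 and 266 CPM. Its log2 fold change was -1.18 (SE 0.34, adjusted p = 0.964 in edgeR) and -0.82 without WT 2. Cox6c had 126 and 243 CPM against 105, 89.3 and 70.3 CPM, and its log2 fold change of -1.17 (SE 0.57) became -0.56 without WT 2. Cox5b, which binds zinc, had 334 and 549 CPM against 301, 219 and 299 CPM, and its value of -0.79 (SE 0.39) became -0.33.

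Cox7b had 137 and 152 CPM against 76.3, 82.7 and 112 CPM. Its libraries labelled WT were alike, and WT 2 did not stand apart.

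WT 2 held the highest level of 12 of the 14 genes of complex IV. Cox6a1 had 677 CPM there and 271 to 381 CPM elsewhere, Cox7a2 352 CPM and 129 to 158 CPM, and Cox7c 192 CPM and 54.5 to 68.5 CPM. Cox5a had 288 CPM there and 97.1 to 157 CPM elsewhere. Without that library the complex's median was -0.12, against 0.22 over all genes. Cox4i1 had 972 and 1176 CPM against 704, 980 and 1053 CPM, and Cox7a2l, which joins complexes III and IV into supercomplexes, 398 and 439 CPM against 367, 533 and 443 CPM. The labels of both overlapped. The complex took 0.351% and 0.546% of counts against 0.299%, 0.323% and 0.339%.

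Some subunits of complex IV exist as tissue isoforms encoded by separate genes, and 3 of these were read unevenly. Cox4i2, the isoform known from lung and low oxygen, had 4 counts in WT 1, 294 in WT 2, and 280, 768 and 2 in Ythdf3-/- 1, 2 and 3. It made up 0.0247% (95% Wilson interval 0.00961 to 0.0635) of Cox4i counts in WT 1 and 0.0271% (0.00742 to 0.0987) in Ythdf3-/- 3. In WT 2, Ythdf3-/- 1 and Ythdf3-/- 2 the share was 2.71% (2.42 to 3.04), 5.89% (5.25 to 6.59) and 7.95% (7.42 to 8.50). Cox6b2, the testis isoform, had 2 and 946 counts against 186, 102 and 2, and so was nearly missing in the same libraries, WT 1 and Ythdf3-/- 3. Its share of Cox6b counts reached 12.1% (11.4 to 12.9) in WT 2.

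Cox7a1, the heart and muscle isoform, had 109 counts in WT 2, or 12.2 CPM, and 0 in the other libraries, where 3 counts would be 0.180 to 0.472 CPM. It was the 1 member that failed the expression filter. The muscle or testis isoforms Cox6a2, Cox7b2, Cox8b and Cox8c were at 0 in each library. These patterns did not follow the labels, and with 30 cells a library it was not tested whether a few cells carried the counts.

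**Figure D4:**
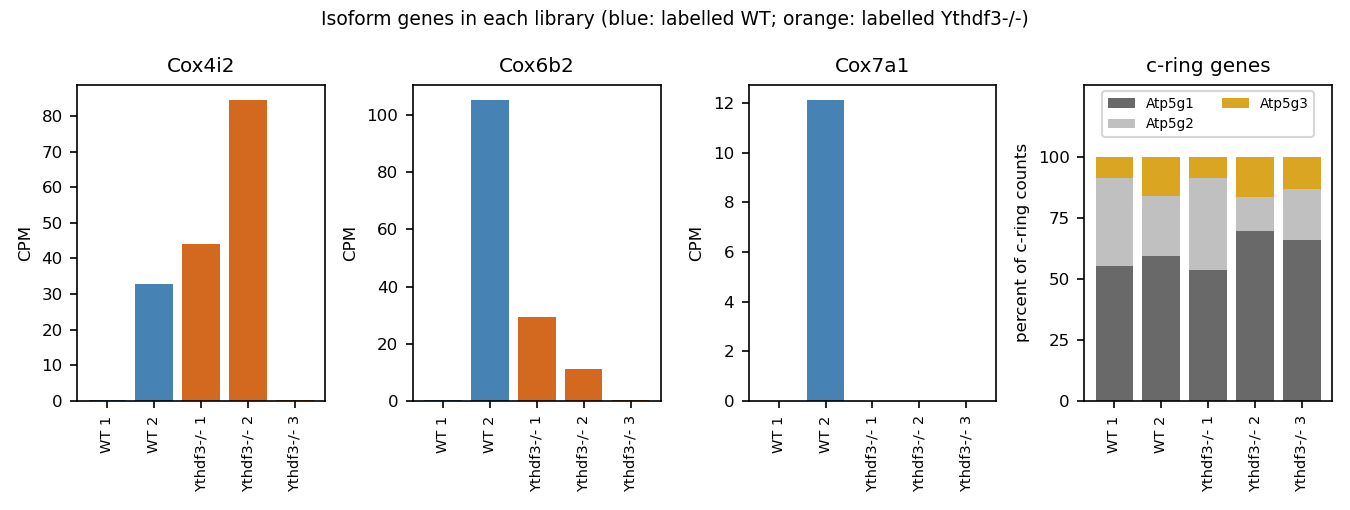
CPM of Cox4i2, Cox6b2 and Cox7a1 in each library (bars), and the share of each of the 3 c-ring genes of complex V in their summed counts (stacked bars, percent). Cox4i2 and Cox6b2 are near 0 in WT 1 and Ythdf3-/- 3, Cox7a1 is present in WT 2 alone, and Atp5g1 is the largest part of the c-ring counts in each library.

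Complex V had a median log2 fold change of -0.46 over 17 genes. Of these, 12 were fitted lower and 4 did not overlap, against 52.2% and 11.0% of all genes tested. The 17 include Atp5s and Atp5sl, which are no subunits of the enzyme and were both fitted higher here. Values given for the complex as a whole count them. Without WT 2 the median was -0.046, against 0.22 over all genes, with 9 fitted lower. In the F1 head, where ATP is made, the labels of the larger subunits overlapped. Atp5a1 had 552 and 748 CPM against 538, 731 and 854 CPM, Atp5b 775 and 1078 CPM against 862, 829 and 999 CPM, and Atp5c1, the rotating gamma subunit, 342 and 530.0 CPM against 393, 420 and 496 CPM. Atp5d, the delta subunit, overlapped as well, with 327 and 487.5 CPM against 240.5, 347 and 372 CPM. Atp5e, the small epsilon subunit with a transcript of 421 bases, had 206 and 288 CPM against 143, 139.9 and 102 CPM (log2 fold change -1.04, SE 0.46, and -0.72 without WT 2).

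In the stalk and membrane part, 5 of 7 genes were fitted lower (median -0.76), and 4 of 7 without WT 2 (median -0.06). Atp5l, subunit g, had 144 and 284 CPM against 118, 69.0 and 101 CPM (-1.26, SE 0.55, and -0.62 without WT 2), and 8 pseudogenes share near-identical stretches with it. Atp5o, which links the head to the stalk, had 399 and 519 CPM against 333, 274 and 251 CPM (-0.78, SE 0.35, and -0.52 without WT 2). Atp5h, the stalk subunit d, had 309 and 466 CPM against 261, 275 and 198 CPM. These 3 did not overlap, and adjusted p = 0.983 in edgeR for each. Atp5j and Atp5f1, also of the stalk, were fitted higher, at 266 and 406 CPM against 472, 358 and 314 CPM, and 229.5 and 342 CPM against 361, 267 and 318 CPM, and both overlapped. Atp5k, subunit e, had 30.1 and 98.9 CPM against 40.7, 15.9 and 32.2 CPM, high in WT 2 alone. Atp5s and Atp5sl, which carry the family name but are no subunits of the enzyme, had fitted log2 fold changes of 0.10 (SE 0.81) and 0.23 (SE 0.81).

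The rotating c-ring is encoded by Atp5g1, Atp5g2 and Atp5g3, whose mature proteins are known to be identical. Atp5g1 had 363 and 609 CPM against 410.4, 345 and 377 CPM, Atp5g2 236 and 251 CPM against 290.0, 70.7 and 120 CPM, and Atp5g3 54.5 and 164 CPM against 64.5, 79.4 and 73.3 CPM. Atp5g1 gave the largest part of c-ring counts, not scaled by length, in each library, from 53.7% (95% Wilson interval 52.2 to 55.0) in Ythdf3-/- 1 to 69.7% (68.3 to 71.0) in Ythdf3-/- 2. Per kilobase, on annotated lengths of 2675.5 and 586 bases, Atp5g1 stood at 157 and Atp5g2 at 330.02 CPM in the mean over libraries, the reverse order. The length of Atp5g1 is a median over annotated transcripts and is close to the gene's whole span (chromosome 11, 96072793 to 96075694). The reverse order rests on that length, which also puts Atp5g1 in the longest length class. The share of Atp5g2 was 36.1% (35.2 to 37.0) and 24.5% (23.6 to 25.4) in the libraries labelled WT, against 37.9% (36.6 to 39.3), 14.3% (13.3 to 15.3) and 21.0% (19.8 to 22.3). The shares of Atp5g2 in WT 1 and Ythdf3-/- 1 were alike and those of the other libraries lower, so the mix did not follow the labels. Complex V took 0.452% and 0.660% of counts against 0.488%, 0.451% and 0.482%, and the difference of its label means changed sign, from -0.0823 to 0.0215 percentage points, without WT 2.

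**Figure D5:**
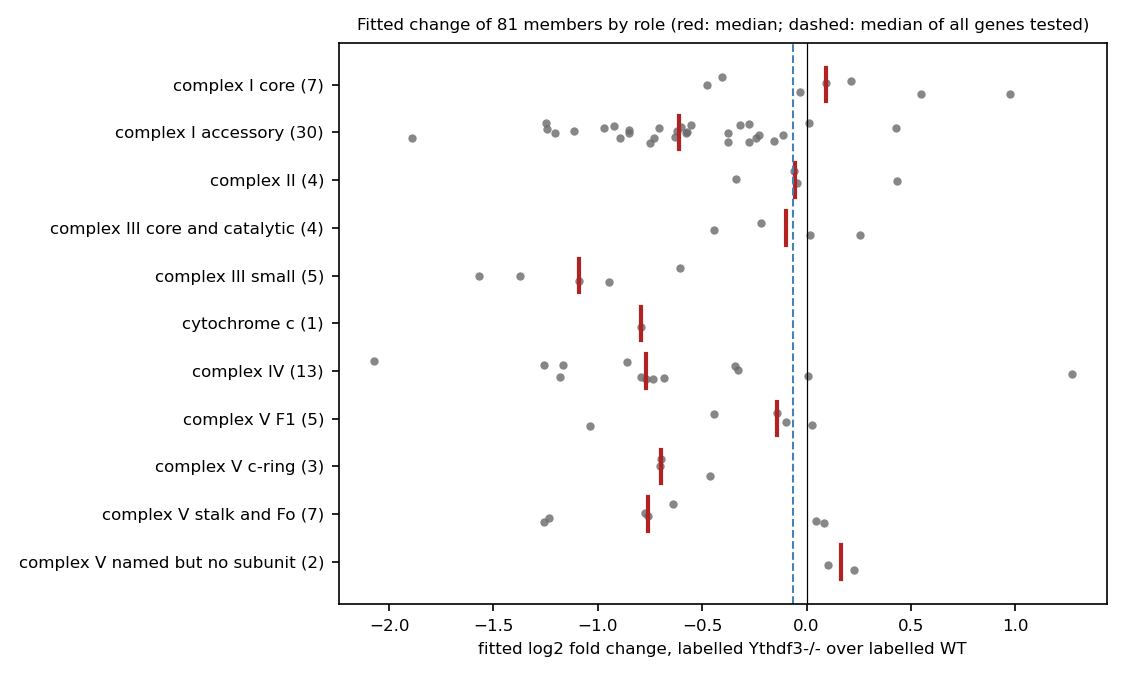
Fitted log2 fold change (labelled Ythdf3-/- over labelled WT) of the 81 tested members by complex and role, with the number of genes in parentheses; red bars are medians and the dashed line the median of all genes tested (-0.06). The small subunits of complex III lie furthest below 0 (median -1.09), and the core subunits of complex I lie around 0.09.

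Other genes of the pathway were read from lists beside the subunits. Assembly factors help to build the complexes without staying in them, and the list of 48 also held genes with other roles, such as Atpif1. Of the 48, 46 were tested, 24 were fitted lower (52.2% of all genes tested were) and 22 higher, and 0 passed. Their median was -0.25, with 8 lower and 4 higher in every library labelled Ythdf3-/- (against 11.0% and 9.74% of all genes). Without WT 2 that median was 0.09, against 0.22 over all genes, so no direction is given. Atpif1, the inhibitor of ATP hydrolysis by complex V, had 449 and 893 CPM against 408, 306 and 326 CPM (log2 fold change -1.05, SE 0.39, and -0.41 without WT 2). Cox17, a copper chaperone for complex IV, had 118 and 157 CPM against 39.8, 17.4 and 62.6 CPM (-1.89, SE 0.81). Both lay lower in every library labelled Ythdf3-/- (adjusted p = 0.964 and 0.983 in edgeR).

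Of 11 transcriptional regulators 10 were tested, 6 were fitted lower (52.2% of all genes tested were) and 0 passed. Gabpb1, a subunit of GABP, had 88.6 and 16.1 CPM against 112, 116 and 76.4 CPM, lowest in WT 2. Tfb2m, a mitochondrial transcription factor, had 1.62 and 14.5 CPM against 23.9, 16.5 and 53.9 CPM, higher in every library labelled Ythdf3-/-. Ppargc1a, the coactivator of mitochondrial biogenesis, had 1 count in WT 1, 12 counts in WT 2 and 0 in the rest. Of the subunits encoded by mitochondrial DNA, 10 of 11 tested were fitted lower, against 52.2% of all genes tested. Of these subunits, 0 passed or kept the labels apart. Their median of -0.84 turned to 0.45 without WT 2, against 0.22 over all genes. In that library ND4, a core subunit of complex I, had 921 CPM, against 327 to 412 CPM elsewhere. CYTB did not stand out there, with 2777 CPM against 2665 to 3657 CPM elsewhere.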

How the data were processed

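The authors deposited a table of raw counts of reads by gene symbol, with 1 column for each of the 5 libraries. The submitters' processing notes name HISAT2 2.2.1, HTSeq 0.12.4 and mm10. For the annotation, strand setting and reads with several matches, nothing is given in the sources used here. Groups follow the sample titles. The series text gives each sample its own mouse.

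Counts of all genes were tested in R 4.3.3 with edgeR 4.0.16 (default filter by group, TMM, robust quasi-likelihood fit, no covariate; Benjamini-Hochberg at 0.05). SEs were derived from the F statistic. CPM uses library totals. DESeq2 1.42.0 and limma voom 3.58.1 were alternatives, with other scalings and filters. A run of the edgeR method on simulated data used a lower spread than that of these data, so it does not measure power here. Coding transcript lengths are medians over basic GENCODE M21 transcripts (GRCm38, which is mm10). Coordinates and promoters are from RefSeq GRCm38.p6 (79 of 82 members had a span). Of 81 members in GENCODE, 28 have exons that overlap another gene, and 23 share at least 150 bases at 95% identity or more with a pseudogene. The counts of these are less certain. Among genes named, the former include Ndufb6, Ndufs1, Uqcrb, Uqcrc2, Cox4i1, Cox6c, Atp5a1, Atp5d, Atp5j and Atp5o, and the latter Cox6c, Cox7b, Cox7c, Atp5c1, Atp5h, Atp5o, Atp5g1 and Atp5g2.

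Members and lists were chosen with earlier results of these data known. Named were the core subunits (1 member is not reported singly here), isoform families, members with the smallest p and highest fold change per complex (5 and 3 in complex I, otherwise 3 and 2), and 2 genes per other list by p; further members were named after their values were seen. Marker lists of B cells, megakaryocytes, granulocytes and T and NK cells were read as well: their summed levels ran from 58.5 to 1562, 38.5 to 203, 849 to 1558 and 0.841 to 93.1 CPM.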

Additional observations from a re-analysis of the deposited data

How the results depend on the processing

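No member passed under any of the 14 alternatives run (other scalings, filters, DESeq2, limma voom, leaving out libraries, a replicate block), against 0 in the edgeR fit. In edgeR with no filter 21 genes passed and without WT 1 1 gene, none a member. Leaving out each library in turn, the medians of log2 fold change ranged from -0.90 to -0.048 (complex I), -0.21 to 0.27 (II), -0.99 to -0.54 (III), -1.21 to -0.12 (IV) and -0.78 to -0.046 (V). The count of members lower in every library labelled Ythdf3-/- ranged from 25 to 57, the latter without WT 1, where 27.3% of all genes were so. Where a WT library is left out, the lone remaining one is assumed to vary like the rest.

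Leaving out WT 2 and Ythdf3-/- 1 together, an alternative chosen after seeing the data, the median of complex V was -0.069, that of Ndufv1 -0.47, and 37 members were lower in every library. Among the members with a log2 fold change printed and refitted singly, those that changed sign without 1 library were Ndufv1 (range -0.16 to 0.89), Ndufa10 (-0.16 to 0.67) and Sdhb (-0.81 to 0.41). With the replicate number of the titles as a replicate block, 0 members passed, 59 of 81 were fitted lower, and 1 had an unadjusted p under 0.05. The mice differ, and the numbers were taken to name libraries only. Same-numbered libraries deviated with correlations of -0.0087 and 0.0036 over genes. With 2 libraries labelled WT, their deviations from their mean mirror each other. These correlations therefore cannot show whether same-numbered libraries were handled together. The spread between libraries (common biological coefficient of variation 1.26) limits what 2 against 3 libraries can show.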
